A study of Mus musculus with 12 samples.

Results

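Macrophages and monocytes are described here through 34 genes that mark these cells or serve their main functions, found in the value table by the gene symbol of each probe set. Of the 34, 32 were measured, each by 1 probe set, among 24704 genes tested. Ear1 and Ear2 were not analysed here. The genes fall into alveolar and foam-type surface and secreted genes, lipid and lysosomal genes, scavenger and apoptotic cell receptors, Fc receptors, lineage genes and monocyte genes.

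RNA of whole mouse lung was hybridised to Affymetrix arrays, with 12 arrays in 4 groups of 3. Control mice (Nfat5fl/fl) carried floxed Nfat5 alleles and received the solvent miglyol, and knockout mice (Nfat5(EC)-/-) had the gene ablated in endothelial cells by 1 mg of tamoxifen a day for 5 days at 10 to 12 weeks of age. The drug and the deletion therefore cannot be told apart, and the promoter that drives the recombinase was not given in the labels read here. After 2 to 3 weeks of recovery, mice of both genotypes, males and females, were kept in normoxia or for 21 days in hypoxia, and lungs were perfused to remove blood. The design text counts 4 mice per group and says that lungs with contaminating tissue or a poor expression response to hypoxia were left out, so the hypoxic groups were chosen in part on what is measured here. Replicates 1, 2 and 4 were used in each group except the hypoxic knockouts, which were 2, 3 and 4, and values below follow that order.

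Alveolar macrophages live on the air side of the lung, where they take up and degrade surfactant lipid and debris, and depend on the cytokine GM-CSF and the nuclear receptor PPAR gamma. Interstitial macrophages lie around vessels and bronchi, and monocytes reach the lung from blood, as inflammatory Ly6C-high cells or as Ly6C-low cells that patrol vessel walls. In chronic hypoxia, macrophages gather around the remodelling small arteries of rodent lungs. In a whole-lung sample, fewer cells of a type and less RNA per cell cannot be told apart, and several of the 32 genes are also made by other lung cells.

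The values are log2 levels, so that a difference of 1 is a doubling, and each was tested with limma across all genes, with p-values adjusted by Benjamini-Hochberg and called at an adjusted p under 0.05. Nfat5 itself was 9.11 ± 0.25 (SD, n = 3) in control normoxic, 8.67 ± 0.11 in knockout normoxic, 8.43 ± 0.24 in control hypoxic and 8.34 ± 0.15 in knockout hypoxic lungs, and the difference between genotypes did not pass the test (adjusted p = 0.62 in normoxia and 0.97 in hypoxia). Before adjustment, the normoxic difference was -0.44 with a 95% interval from -0.76 to -0.12. Nfat5 also fell with hypoxia in control lungs, by -0.68 (adjusted p = 0.016 in limma), while the knockout change of -0.33 did not pass (adjusted p = 0.38). Whether its probes lie in the deleted part of the gene is not known here. The brown fat gene Ucp1 was at 7.66 in control hypoxic lung 1 and 9.31 in knockout normoxic lung 2, against at most 4.28 in the other arrays. The clock genes Dbp and Arntl separated the oxygen states, with Dbp above Arntl by 5.64 to 6.21 in hypoxic lungs and by -0.1 to 3.72 in normoxic lungs. A list of 10 nuclear noncoding RNAs averaged 6.27 to 6.69 in control normoxic and 5.66 to 5.9 in control hypoxic lungs, a gap without overlap, and 6.01 to 6.43 and 5.78 to 6.15 in knockout lungs, where the groups overlapped. The mean of 3 Y-linked genes was high in 4 of the 6 normoxic and 2 of the 6 hypoxic arrays. Fits with the nuclear RNA, adipocyte and Y-linked means as covariates are given with the results, and the part of the clock difference in them was not tested.

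Hypoxia split the macrophage and monocyte genes. Averaged over both genotypes, 6 of 8 genes of lipid handling and lysosomes rose, with Gpnmb at 2.44-fold, Ctsk at 1.98-fold, Trem2 at 1.94-fold and Cd68 at 1.8-fold. Adgre4, a surface receptor of patrolling monocytes and some macrophages, fell to 0.419 of its normoxic level, and Cd36, a receptor for lipid uptake, to 0.636. Monocyte genes did not move as 1 group, as 2 of 17 other monocyte genes rose and 6 fell. Adgre4 was the only lineage gene that passed the test, and others such as Csf1r and Spi1 did not. In this average 10 of the 32 genes rose and 4 fell, 43.8% of those measured, where 14.7% of all genes were called (7.27% higher and 7.4% lower). A filter on low values kept genes with at least 1 group mean above the array median of 4.55. It kept 12890 genes, 30 of the 32 among them, and 30% of those 12890 were called. Fcgr4 passed this filter only through its hypoxic groups, with means of 4.61 in control and 4.63 in knockout lungs, against 4.05 and 4.31 in normoxia. The median change of the 32 genes was 0.19 on the log2 scale, against 0.01 over all genes. The genes were chosen with earlier results of these data known, so these shares and medians describe the set and do not test it.

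In control lungs alone, 9 of the 32 genes rose with hypoxia and 2 fell, against a background of 11.5% of all genes called (5.36% higher and 6.14% lower). In knockout lungs 4 rose and 2 fell, against 1.14% of all genes (0.64% higher and 0.502% lower). Of the genes kept by the filter on low values, 24.8% were called in control and 2.58% in knockout lungs. Ctsk, Gpnmb, Cd68, Cd36 and Adgre4 were called in both genotypes, a status shared by 0.846% of all genes. Arrays of the oxygen states did not overlap in control lungs for 12 genes that were higher and 5 that were lower (27.7% of all genes in either direction), nor in knockout lungs for 11 higher and 5 lower (19.8%). In 9 genes every hypoxic array lay above every normoxic array of its genotype in both genotypes (4.68% of all genes), and in 4 every one lay below (3.64%). The plot of log2 changes shows both genotypes side by side for all 32 genes.

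**Figure D1:**
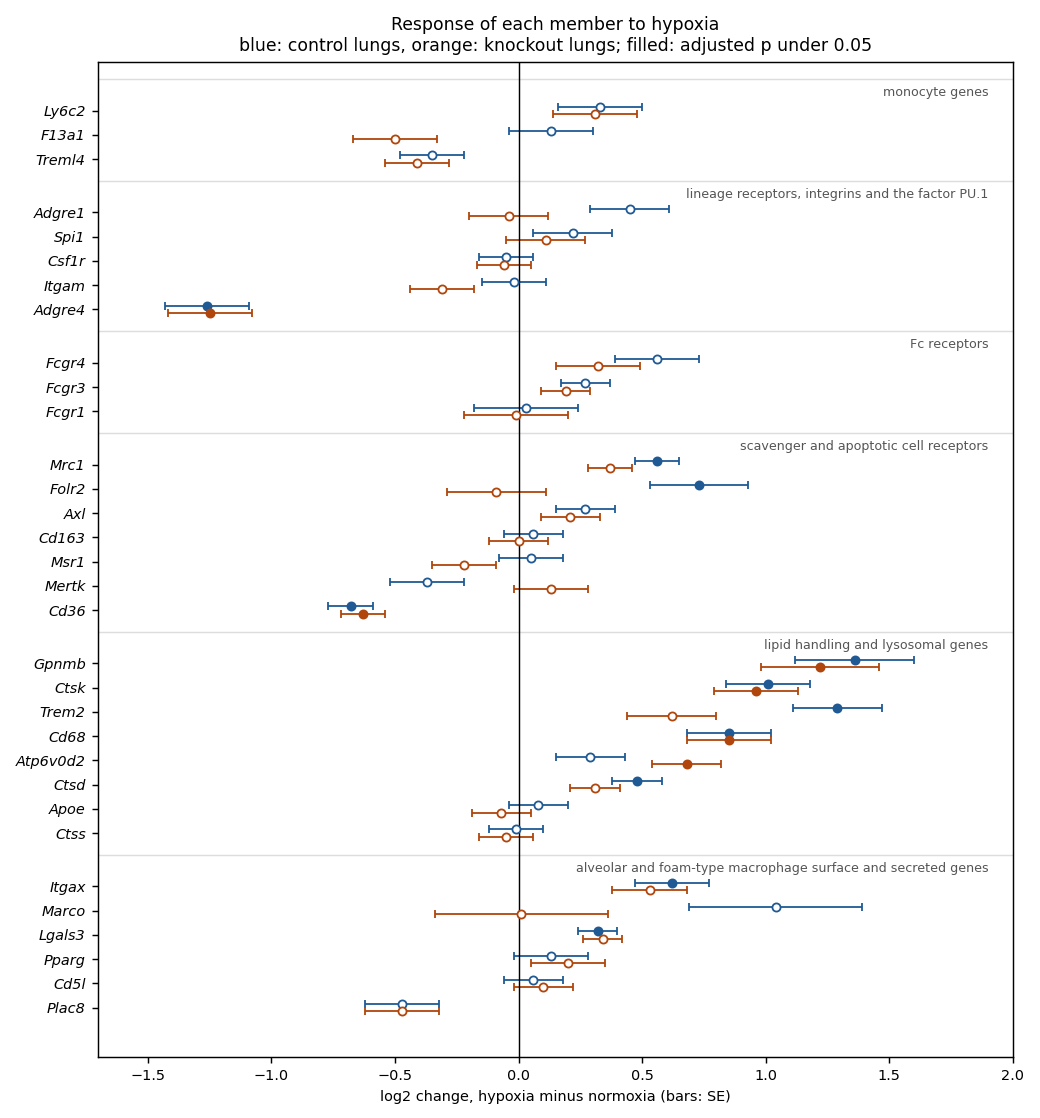
Log2 change from normoxia to hypoxia (horizontal axis, hypoxia minus normoxia) of the 32 measured genes, grouped by role. Blue points are control lungs and orange points knockout lungs with 3 arrays against 3 each, bars are standard errors, and filled points passed an adjusted p under 0.05. Gpnmb, at 1.36 in control and 1.22 in knockout lungs, lies farthest to the right in both genotypes, and Adgre4, at -1.26 and -1.25, farthest to the left.

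Promoter sequence is shown for genes that share a motif known from macrophage genes, for Ctsd and for 2 of the genes that fell. RefSeq promoters of the assembly GRCm38.p6, reaching from 250 bases before to 50 after each start, were found for 27 of the 32 genes, in 36 windows. Both strands were searched for the AP-1 motif TGACTCA, the E-box CACGTG bound by factors of lysosomal genes, the M-box TCATGTG of the MITF family and AGGAAGT, a form of the motif of ETS factors such as PU.1, none of which contains another. The AP-1 motif lay in the windows of 4 of the 27 genes (14.8%), Cd68, Folr2, Gpnmb and Itgax, and in 5.2% of all 32851 windows. AGGAAGT lay in those of 8 genes (29.6%) and in 9.35% of all windows, CACGTG in those of 1 gene (3.7%) and in 7.15%, and TCATGTG in those of 2 genes (7.41%) and in 3.77%. A gene may have several windows, so its chance of holding a match is not that of 1 window. A match is a description of letters, not of binding.

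Of the AP-1 genes, Cd68, Itgax and Gpnmb rose in the average and Folr2 was not called there (0.32, adjusted p = 0.17). They are shown first, 5′ to 3′ on the strand of the gene with the matches in capitals. The start is position 0, and Cd68 (chr11:69666171-69666420, minus strand) and Itgax (chr7:128129300-128129549, plus strand) are shown from -250 to -1. Both carry the motif as its reverse complement, Cd68 at -149 and -24 and Itgax at -56.
Cd68: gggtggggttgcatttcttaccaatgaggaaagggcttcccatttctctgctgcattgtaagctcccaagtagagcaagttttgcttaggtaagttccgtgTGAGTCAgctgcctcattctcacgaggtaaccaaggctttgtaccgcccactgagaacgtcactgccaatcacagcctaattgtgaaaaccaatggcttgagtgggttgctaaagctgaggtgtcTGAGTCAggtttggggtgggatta
Itgax: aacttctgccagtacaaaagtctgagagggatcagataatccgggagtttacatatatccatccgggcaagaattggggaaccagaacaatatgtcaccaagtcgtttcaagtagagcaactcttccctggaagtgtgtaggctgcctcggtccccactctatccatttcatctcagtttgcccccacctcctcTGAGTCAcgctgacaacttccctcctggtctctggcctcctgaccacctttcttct
Gpnmb (chr6:49036515-49036544, plus strand) and Folr2 (chr7:101845387-101845416, minus strand) are shown as 30 bases around a match in the forward letters, at 8 and at -74.
Gpnmb: ccaggggcaagTGACTCAtgagcacgagtt
Folr2: actagaccaaaTGACTCAtgggagcccaga

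Ctsd, the lysosomal protease with 2 E-boxes, is shown from -250 to -1 (chr7:142387828-142388077, minus strand), with CACGTG in capitals at -245 and -98.
Ctsd: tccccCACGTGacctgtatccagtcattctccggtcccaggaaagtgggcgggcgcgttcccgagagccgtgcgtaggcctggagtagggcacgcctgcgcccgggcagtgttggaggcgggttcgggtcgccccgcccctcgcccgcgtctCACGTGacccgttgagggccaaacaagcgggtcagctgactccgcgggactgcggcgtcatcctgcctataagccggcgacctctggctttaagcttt
Of the genes that fell, Adgre4 (chr17:55750004-55750033, plus strand) is shown with the reverse complement of the ETS motif in capitals, at 41, and Treml4 (chr17:48264112-48264141, plus strand) with the M-box in capitals, at -172.
Adgre4: gaacaagataagcagtggtgcACTTCCTcc
Treml4: cactgttcctcTCATGTGtccacagaacct

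Of the 8 genes of lipid handling and lysosomes, 6 rose averaged over genotypes and 0 fell, with a median change of 0.67. Ctsk, Gpnmb and Cd68 rose in both genotypes. Trem2 and Ctsd passed in control lungs and Atp6v0d2 in knockout lungs, and the differences between genotypes did not pass for any of them. Ctss and Apoe passed in neither genotype.

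Gpnmb, a transmembrane glycoprotein of lipid-laden macrophages, stood at 7.08, 6.84 and 6.87 in control normoxic and 8.49, 8.3 and 8.07 in control hypoxic lungs. Knockout lungs stood at 6.99, 6.5 and 7.03 in normoxia and 8.28, 7.4 and 8.5 in hypoxia. Every hypoxic array lay above every normoxic array of its genotype, and knockout hypoxic lung 3 was the lowest of the hypoxic arrays. The change was 1.36 ± 0.24 (SE) in control (adjusted p = 0.0084) and 1.22 ± 0.24 in knockout lungs (adjusted p = 0.041). The AP-1 motif shown for it lies just after its start.

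Ctsk encodes cathepsin K, a collagen-degrading protease of osteoclasts that is also made by macrophages and fibroblasts. Levels were 6.07, 5.86 and 6.02 in control normoxic and 6.94, 6.99 and 7.04 in control hypoxic lungs. Knockout lungs gave 6.3, 6 and 6.15 in normoxia and 7.46, 6.64 and 7.23 in hypoxia. All 6 hypoxic arrays exceeded all 6 normoxic arrays. The rise was 1.01 ± 0.17 in control (adjusted p = 0.0067) and 0.96 ± 0.17 in knockout lungs (adjusted p = 0.022).

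Trem2 encodes a lipid-sensing receptor of macrophages and microglia. It was at 5.06, 5 and 5.39 in control normoxic and 6.81, 6.51 and 6 in control hypoxic lungs. The knockout values were 5.46, 5.5 and 5.49 in normoxia and 6.11, 5.92 and 6.28 in hypoxia. The hypoxic arrays were the higher ones in both genotypes, with control hypoxic lung 1 highest of all. The control change of 1.29 ± 0.18 passed the test (adjusted p = 0.0044) and the knockout change of 0.62 ± 0.18 did not (adjusted p = 0.15). The difference between those changes was -0.68 ± 0.25, with a 95% interval from -1.23 to -0.12 before adjustment and an adjusted p of 0.57.

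Cd68, a lysosomal membrane glycoprotein widely used to stain macrophages, was at 8.82, 8.65 and 9.13 in control normoxic and 9.49, 9.88 and 9.77 in control hypoxic lungs. Its knockout levels were 9.08, 8.77 and 8.99 in normoxia and 10.04, 9.45 and 9.89 in hypoxia. No hypoxic array fell to the normoxic range in either genotype. The rise was 0.85 ± 0.17 in each genotype, with adjusted p-values of 0.012 in control and 0.041 in knockout lungs.

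Ctsd encodes cathepsin D, the main aspartyl protease of lysosomes. Its levels were 11.1, 10.91 and 11.06 in control normoxic and 11.59, 11.57 and 11.34 in control hypoxic lungs. The knockout levels were 11.13, 11.08 and 11.2 in normoxia and 11.52, 11.31 and 11.51 in hypoxia. The hypoxic arrays did not overlap the normoxic ones. The change was 0.48 ± 0.1 in control (adjusted p = 0.013) and 0.31 ± 0.1 in knockout lungs (adjusted p = 0.18).

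Atp6v0d2 encodes a subunit of the proton pump that acidifies lysosomes. It was at 8.8, 8.6 and 8.62 in control normoxic and 9.29, 8.81 and 8.78 in control hypoxic lungs, groups that overlapped. In knockout lungs it was at 8.69, 8.65 and 8.43 in normoxia and 9.31, 9.35 and 9.14 in hypoxia, which did not overlap. The change was 0.68 ± 0.14 in knockout (adjusted p = 0.041) and 0.29 ± 0.14 in control lungs (adjusted p = 0.2). The changes of the genotypes differed by 0.39 ± 0.19, with an interval from -0.03 to 0.81 and an adjusted p of 0.62.

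Ctss, the protease that trims the invariant chain for antigen presentation, changed by -0.01 in control and -0.05 in knockout lungs. Apoe, the lipid carrier secreted by macrophages, changed by 0.08 and -0.07. Averaged over genotypes, the 95% intervals ran from -0.2 to 0.15 for Ctss and from -0.18 to 0.19 for Apoe, below every change that passed the test among the risers.

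**Figure D2:**
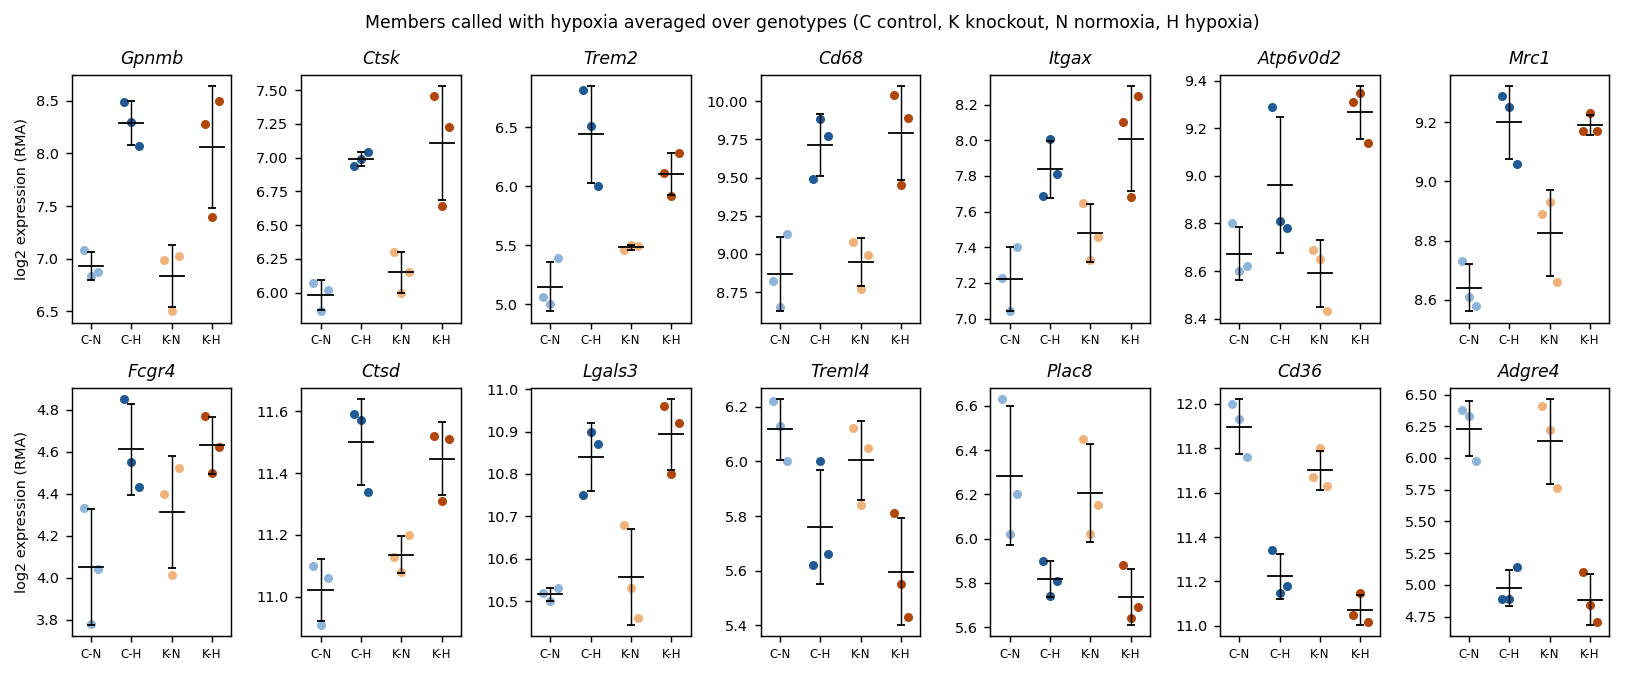
Log2 level (vertical axis) of the genes called in hypoxia averaged over genotypes, in each of the 12 arrays. Points are arrays, lines group means and bars SD of 3 arrays, with the 4 groups along the horizontal axis. In Gpnmb the knockout hypoxic group holds 1 array at 7.4 below the others at 8.28 and 8.5, and Adgre4 stays at or below 5.14 in all hypoxic arrays.

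Among the 6 measured genes grouped as alveolar and foam-type, 2 rose and 1 fell. The gene that fell, Plac8, is described below as one of other cells. Itgax, the integrin chain CD11c of alveolar macrophages and dendritic cells, was at 7.23, 7.04 and 7.4 in control normoxic and 7.69, 8.01 and 7.81 in control hypoxic lungs. Knockout lungs gave 7.65, 7.33 and 7.46 in normoxia and 8.1, 7.68 and 8.25 in hypoxia, where the lowest hypoxic array sat just above the highest normoxic array. The change was 0.62 ± 0.15 in control (adjusted p = 0.027) and 0.53 ± 0.15 in knockout lungs (adjusted p = 0.15). The dendritic cell list fell in 1 of its 9 genes and rose in 0.

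Lgals3 encodes galectin-3, a sugar-binding protein secreted by macrophages and also made by epithelium. Its levels were 10.52, 10.5 and 10.53 in control normoxic and 10.75, 10.9 and 10.87 in control hypoxic lungs. Knockout levels were 10.68, 10.53 and 10.46 in normoxia and 10.96, 10.8 and 10.92 in hypoxia. The gaps between groups were small but free of overlap. The change was 0.32 ± 0.08 in control (adjusted p = 0.03) and 0.34 ± 0.08 in knockout lungs (adjusted p = 0.086).

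Plac8, a gene of monocytes, plasmacytoid dendritic cells and epithelium, was the only one of these 6 that fell. It was at 6.63, 6.02 and 6.2 in control normoxic and 5.9, 5.74 and 5.81 in control hypoxic lungs. Knockout lungs read 6.45, 6.02 and 6.15 in normoxia and 5.88, 5.64 and 5.69 in hypoxia. Hypoxic arrays were the lower ones throughout. The change of -0.47 ± 0.11 passed averaged over genotypes (adjusted p = 0.015), with -0.47 in each genotype alone short of the threshold (adjusted p = 0.071 and 0.2).

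Marco, a scavenger receptor of alveolar macrophages, had the widest spread of the 32 genes. It was at 6.95, 5.73 and 6.42 in control normoxic and 8.19, 7.39 and 6.63 in control hypoxic lungs, against 6.73 to 7.03 over all knockout arrays. The control change of 1.04 ± 0.35 did not pass (adjusted p = 0.074), and neither did the difference between genotypes of -1.03 ± 0.49 (adjusted p = 0.62). Pparg, the receptor that programmes alveolar macrophages, changed by 0.17 ± 0.11 averaged over genotypes. Cd5l, a secreted macrophage protein, was at 2.84 to 3.35, below the array median of 4.55 in every array.

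Of the 7 scavenger and apoptotic cell receptors, 1 rose and 1 fell averaged over genotypes, and 2 rose and 1 fell in control lungs. Cd36, a fatty acid and oxidised lipid receptor, is also abundant in capillary endothelium, fat and heart. It was at 12, 11.93 and 11.76 in control normoxic and 11.34, 11.15 and 11.18 in control hypoxic lungs. Knockout levels were 11.67, 11.8 and 11.63 in normoxia and 11.05, 11.15 and 11.02 in hypoxia. All hypoxic arrays lay below all normoxic ones. The fall was -0.68 ± 0.09 in control (adjusted p = 0.0041) and -0.63 ± 0.09 in knockout lungs (adjusted p = 0.0085). Of 10 measured capillary endothelial markers 5 fell and 0 rose averaged over genotypes. Their mean was 9.83 to 9.91 in control normoxic, 9.44 to 9.64 in control hypoxic, 9.64 to 9.96 in knockout normoxic and 9.34 to 9.64 in knockout hypoxic lungs, and their part in the fall of Cd36 was not tested.

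Mrc1, the mannose receptor of alveolar and interstitial macrophages, also made by lymphatic endothelium, was at 8.73, 8.61 and 8.58 in control normoxic and 9.29, 9.25 and 9.06 in control hypoxic lungs. The knockout arrays read 8.89, 8.93 and 8.66 in normoxia and 9.17, 9.23 and 9.17 in hypoxia. The oxygen states were separate in both genotypes. The change was 0.56 ± 0.09 in control (adjusted p = 0.0072) and 0.37 ± 0.09 in knockout lungs (adjusted p = 0.1).

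Folr2, a folate receptor of resident interstitial macrophages, rose in control lungs by 0.73 ± 0.2 (adjusted p = 0.041), from 5.41 to 6.32 in normoxia to 6.41 to 6.79 in hypoxia. In knockout lungs it changed by -0.09 ± 0.2, and the difference between genotypes of -0.82 ± 0.29 did not pass (adjusted p = 0.57). The control call was lost in 11 of 17 alternatives, over which the change ran from 0.46 to 0.96 and the adjusted p from 0.0079 to 0.87. It was lost without each of the control arrays except normoxic lung 4, with a change of 0.5 without normoxic lung 2. The other receptors did not pass in either genotype. Axl and Mertk, TAM receptors for dying cells, changed by 0.24 and -0.12 averaged over genotypes, Cd163 by 0.03 and Msr1, below the array median in every array, by -0.08.

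Of the 3 Fc receptors, which bind antibody-coated particles, Fcgr4 rose averaged over genotypes by 0.44 ± 0.12 (adjusted p = 0.031). It was at 4.33, 3.78 and 4.04 in control normoxic and 4.85, 4.55 and 4.43 in control hypoxic lungs, and at 4.4, 4.01 and 4.52 and 4.77, 4.5 and 4.62 in the knockout groups. This signal was low, with all normoxic arrays, control hypoxic lung 4 and knockout hypoxic lung 3 below the array median of 4.55. The control groups did not overlap, whereas the lowest knockout hypoxic array, at 4.5, lay below the highest normoxic one, at 4.52. Its call was lost in 9 of 22 alternatives, over which the change ran from 0.15 to 0.69 and the adjusted p from 0.002 to 0.9. These included the fit without the arrays with high Ucp1 (0.3, adjusted p = 0.11) and those without control hypoxic lung 1 or 2, control normoxic lung 2, knockout hypoxic lung 2 or 4, or knockout normoxic lung 2. Fcgr3 was higher in every hypoxic array of both genotypes, with a change of 0.23 ± 0.07 that did not pass (adjusted p = 0.061), and Fcgr1 changed by 0.01 ± 0.15.

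Of the 5 lineage genes, 1 passed. Adgre4, also called EMR4 and FIRE, is an adhesion receptor of Ly6C-low monocytes and some macrophages. It was at 6.38, 6.33 and 5.98 in control normoxic and 4.89, 4.89 and 5.14 in control hypoxic lungs. Knockout lungs gave 6.41, 6.22 and 5.76 in normoxia and 5.1, 4.84 and 4.71 in hypoxia. The hypoxic arrays formed a separate low group, with the change of -1.26 ± 0.17 in control (adjusted p = 0.0043) almost equal to the -1.25 ± 0.17 in knockout lungs (adjusted p = 0.0072). The difference between them was 0.01, with an interval from -0.52 to 0.54.

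Csf1r, the receptor for the growth factors CSF1 and IL-34, changed by -0.05 in control and -0.06 in knockout lungs, with an averaged interval from -0.22 to 0.12. Spi1, which encodes PU.1, the factor that specifies the lineage, changed by 0.22 and 0.11. Adgre1, which encodes the F4/80 antigen, was higher in every control hypoxic array by 0.45 ± 0.16 (adjusted p = 0.086) and changed by -0.04 in knockout lungs. Itgam, the integrin chain CD11b of monocytes, interstitial macrophages and neutrophils, changed by -0.02 and -0.31, and neither passed. The mean of 11 neutrophil markers was 4.54 to 4.75 in knockout normoxic and 4.15 to 4.25 in knockout hypoxic lungs, against 4.36 to 4.46 and 4.39 to 4.57 in control lungs, and its part in the Itgam values was not tested.

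Of the 3 monocyte genes, Treml4, a receptor that recognises dead cells, fell averaged over genotypes by 0.38 on the log2 scale, with a standard error of 0.09 (adjusted p = 0.019). It was at 6.22, 6.13 and 6 in control normoxic and 5.62, 6 and 5.66 in control hypoxic lungs, where the groups only touched at their rounded edges. Knockout levels ran at 6.12, 5.84 and 6.05 in normoxia and 5.81, 5.55 and 5.43 in hypoxia. Hypoxic arrays were again the lower ones. Ly6c2, a surface protein of inflammatory monocytes, changed by 0.33 and 0.31 in control and knockout lungs and did not pass, and F13a1, coagulation factor XIII A of monocytes and resident macrophages, changed by 0.13 and -0.5 and did not pass.

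The pan-leukocyte markers, genes of all white blood cells, averaged 9.24 to 9.39 in control normoxic and 8.82 to 9.21 in control hypoxic lungs, and 9.27 to 9.41 and 8.97 to 9.2 in knockout lungs, with 2 of 6 genes called lower and 0 higher. Their leading gene Ptprc, which encodes CD45, fell by 0.93 on the log2 scale (adjusted p = 0.00099). B cell markers fell in 7 of 8 genes and T and NK cell markers in 4 of 10. Of the fibroblast markers 4 of 9 rose, and fibroblasts also make Ctsk. The fibroblast mean was 8.47 to 8.59 and 8.85 to 8.91 in control and 8.57 to 8.79 and 8.69 to 8.91 in knockout lungs. The part of these cells in the changes of the 32 genes was not tested.

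**Figure D3:**
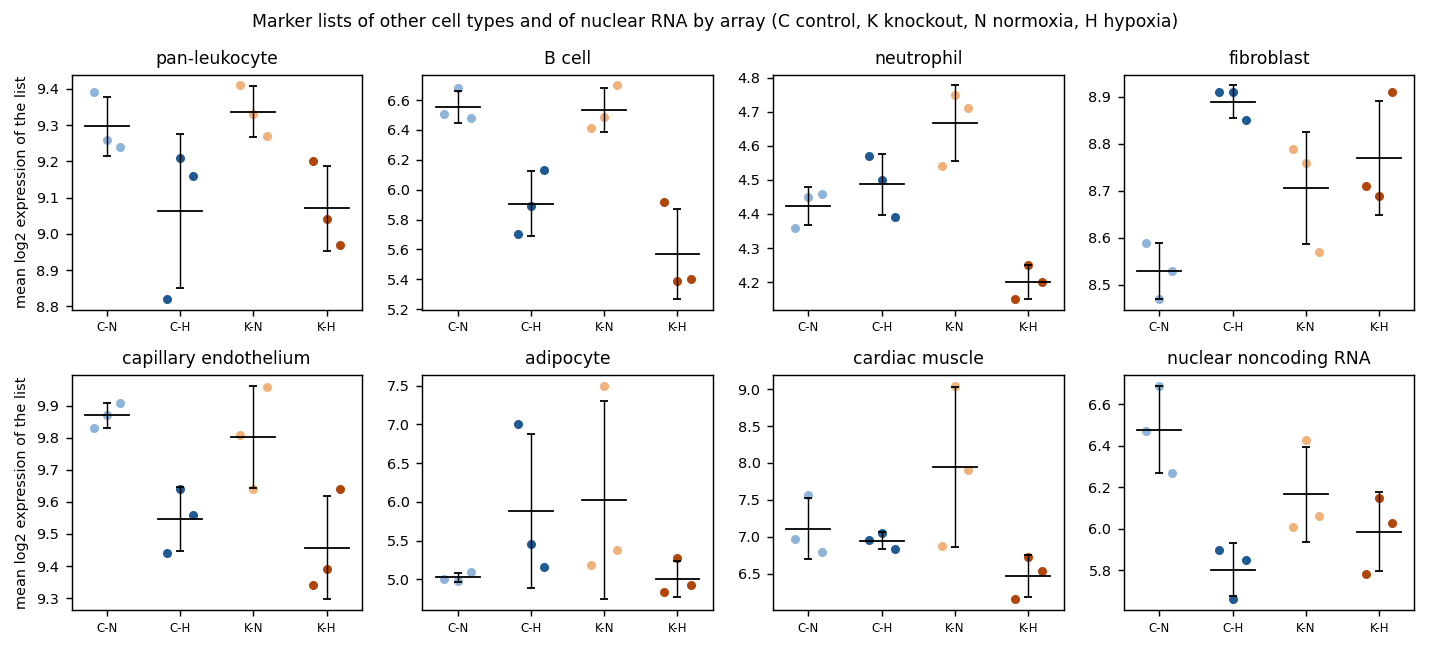
Mean log2 level of marker lists in each of the 12 arrays, with the groups on the horizontal axis and the level on the vertical axis; lines are group means and bars SD. The pan-leukocyte mean is lower in every hypoxic array than in the normoxic arrays of its genotype, the capillary mean is so in control lungs and meets at 9.64 in knockout lungs, and the adipocyte mean reaches 7.01 in 1 control hypoxic and 7.5 in 1 knockout normoxic array.

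When each array was set relative to its pan-leukocyte mean, the median of all genes moved from 0.01 to 0.26 in the averaged comparison, and 19 of the 32 genes were higher and 2 lower. Of all genes 42.7% were then called, 10135 higher and 407 lower. The same scaling gave 16 higher and 1 lower in control lungs, where 16.2% of all genes were called (3668 higher and 345 lower), and 9 higher and 1 lower in knockout lungs, where 6.02% were (1444 higher and 43 lower). Against that moved median, Plac8 and Treml4 lost their calls in the average and Cd36 in each genotype, while Adgre4 kept its call.

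With the mean of the nuclear noncoding RNAs as a covariate, 0 of the 32 genes were called in control lungs and 0 in the average, where the covariate also left 2 and 62 of all genes called. The averaged changes of the 14 called genes kept their direction, and their size went from 1.29 to 0.9 for Gpnmb, 0.98 to 0.64 for Ctsk, 0.95 to 0.82 for Trem2, 0.85 to 0.39 for Cd68, 0.57 to 0.22 for Itgax, 0.44 to 0.15 for Fcgr4 and -1.25 to -1.19 for Adgre4. In control lungs the change of Cd68 went from 0.85 to 0.12 (adjusted p = 0.95) and that of Itgax from 0.62 to 0.06 (adjusted p = 0.98). In knockout lungs, where this mean overlapped between oxygen states, 4 of the 6 calls remained with the covariate, Ctsk, Cd68, Cd36 and Adgre4. Single arrays also mattered within a genotype. Over 17 alternatives, the control calls of Lgals3 and Itgax were lost in 8 and 6, and the knockout calls of Gpnmb, Cd68, Atp6v0d2 and Ctsk in 10, 10, 9 and 8. Without control hypoxic lung 2, or without control normoxic lung 2, 6 of the 11 control calls were made. In knockout lungs 2 to 5 calls were made without single arrays, fewest without normoxic lung 2 and without hypoxic lungs 2 or 4, and 3 without normoxic lung 1 or 4. Without the arrays of high Ucp1 there were 1 in knockout, 10 in control and 14 in the average. Those 14 do not include Fcgr4, so they are not the same 14 genes as in the main fit. The knockout calls numbered 3 with the adipocyte covariate and 2 with the Y-linked covariate.

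By the test in limma, 0 of the 32 genes differed between genotypes. Knockout minus control gave 0 calls in normoxia (0.00405% of all genes called, with 2 of 32 at an unadjusted p under 0.05), 0 in hypoxia (0% of all genes, 1 unadjusted) and 0 averaged over oxygen states (0% of all genes, 2 unadjusted). The widest differences were 0.59 for Folr2 in normoxia (95% interval 0.14 to 1.03, adjusted p = 0.62) and -0.49 for Marco in hypoxia (-1.25 to 0.27, adjusted p = 0.95). The hypoxia response differed between genotypes in 0 of 32 genes (0.00405% of all genes, 5 unadjusted). Those 5 were Folr2, Trem2, F13a1 and Adgre1, each with a lower change in knockout lungs, and Mertk, which changed by -0.37 in control and 0.13 in knockout lungs. Arrays of the genotypes did not overlap in normoxia for Trem2, Msr1 and Fcgr3, all higher in knockout lungs (11.7% of all genes), nor in hypoxia for Cd36, lower in knockout lungs (9.74% of all genes).

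Further genes of the same biology were counted from lists that named 107 genes, 99 of them measured. These lists too were chosen with earlier results of these data known. In the average, 7 of 17 other alveolar macrophage genes rose and 0 fell, with a median of 0.24. The leading genes were Chil3, a chitinase-like protein of alveolar macrophages, at 0.69 ± 0.09 (adjusted p = 0.0013), the oxidised lipid receptor Olr1 at 0.47 ± 0.08, the zinc transporter Slc39a2 at 0.71 ± 0.14, and Krt19, also a keratin of airway epithelium, at 0.42 ± 0.1. In control lungs 5 rose, among them Siglecf, the lectin that marks alveolar macrophages and eosinophils, at 0.58 ± 0.16 and Cidec, a lipid droplet protein also of fat cells, at 1.35 ± 0.31. Of the eosinophil markers 0 of 5 were called in the hypoxia comparisons. Their mean was only 3.07 to 3.3 over the arrays, below the array median of 4.55, so this count says little about eosinophils. In knockout lungs 1 rose, Chil3 at 0.71 ± 0.13. The 7 calls became 4 without the arrays of high Ucp1 and 3 with the Y-linked covariate.

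Of 18 other interstitial and resident genes, 6 rose and 2 fell, with a median of 0.13. Lyve1, a hyaluronan receptor of perivascular macrophages and lymphatic endothelium, fell by 1.13 on the log2 scale (adjusted p = 0.00016), while Tmem119 rose by 0.7 and the complement gene C1qb by 0.66. Selenop, a selenium carrier, fell by 0.42. The lysosomal and lipid list had 7 of 23 genes higher and 0 lower, with a median of 0.14, led by Lipa, the lysosomal acid lipase, at 0.43 ± 0.06, the acid phosphatase Acp5 at 0.62 ± 0.09, the cholesterol carrier Npc2 at 0.28 ± 0.05 and the cholesterol exporter Abcg1 at 0.4 ± 0.08. In knockout lungs 0 of those 23 passed.

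Of 17 other monocyte genes 2 rose and 6 fell, with a median of -0.23. Ccr2, the chemokine receptor that brings inflammatory monocytes to tissue, was at 6.39, 6.59 and 5.8 in control normoxic and 5.14, 5.25 and 5.55 in control hypoxic lungs, and at 6.38, 6.73 and 6.11 and 5.77, 5.57 and 5.23 in knockout lungs. It fell by 0.92 on the log2 scale, Ms4a4c by 1.02 and Gpr141 by 0.37. Gpr141, at 2.84 to 3.44, was below the array median of 4.55 in every array. Ms4a4c was below that median in every hypoxic array, at 3.44 to 4.09. Fn1, also a product of fibroblasts, rose by 0.77. Ly6c2, described above, did not pass.

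Of 24 growth factors, receptors and transcription factors of the lineage, 9 rose and 1 fell, with a median of 0.24. Bhlhe40 and Bhlhe41, transcription factors of alveolar macrophages that are also repressors of the clock, rose by 0.87 and 1.32, beside the separation of Dbp and Arntl given above. Tgfbr2, a receptor for the cytokine that maintains alveolar macrophages, rose by 0.38, and Il34, a ligand of the receptor encoded by Csf1r, by 0.49. The hypoxia response differed between genotypes in 0 genes of these 5 lists. With the nuclear noncoding RNA covariate the averaged calls were 0, 1, 0, 1 and 0 in the order of the lists.

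**Figure D4:**
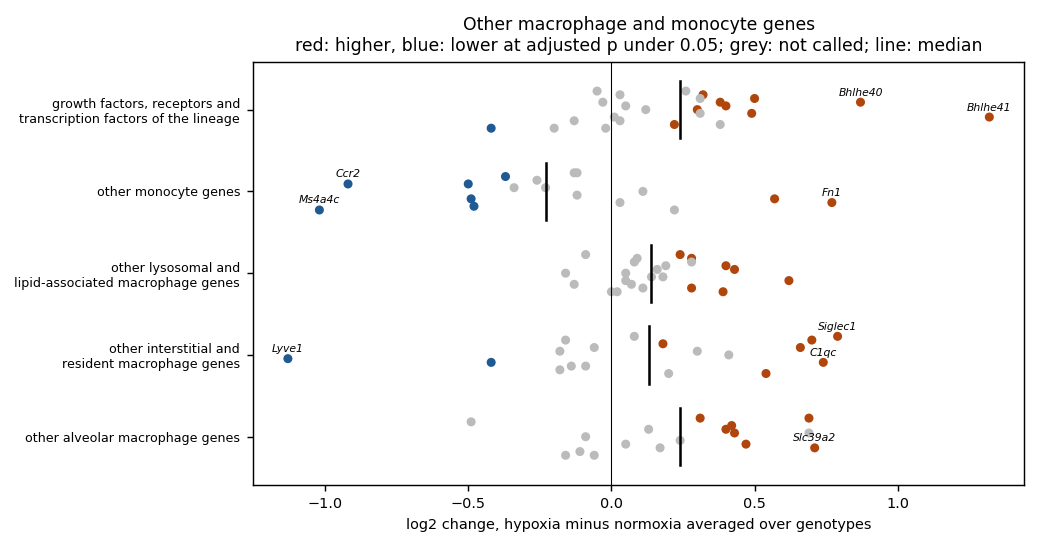
Log2 change from normoxia to hypoxia averaged over genotypes (horizontal axis) for each gene of the 5 further lists, with 1 list a row. Red points passed higher, blue points lower and grey points did not pass, and the line marks the median of a list. Medians run from -0.23 in the other monocyte genes to 0.24 in both the alveolar list and the list of growth factors, receptors and transcription factors.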

How the data were processed

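Per the submitters' processing notes the authors deposited log2 expression values made with RMA, 1 per probe set and array. The RMA version was not given in the labels. Sorted values were identical across the 12 arrays, with a median of 4.55, so RNA content per cell cannot be seen. Array number limits precision. Symbols came from the platform annotation, where 24705 of 25428 had 1 symbol, 723 had none and 0 several, giving 24704 genes, of which 24672 matched the GRCm38.p6 gene table. The model, run in limma 3.58.1 under R 4.3.3, had 4 group means, 8 residual degrees of freedom and 7 contrasts, two-sided, with Benjamini-Hochberg adjustment over all genes in each contrast. Log2 changes carry standard errors from limma. The fit was tested on simulated data. Alternatives included the replicate number as a block, a filter on low values, array weights, covariates and leaving out arrays; the Y-linked covariate and the removal of arrays with high Ucp1 were chosen after seeing the data. Every array's value is given for members called in the averaged contrast, and at most 4 genes of smallest adjusted p are named from a further list in each comparison. Members and lists were chosen with earlier results of these data known. Replicates are taken as separate mice because the design text counts mice; if they are not, p-values measure only technical spread.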

Additional observations from a re-analysis of the deposited data

How the results depend on the processing

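Over 597 values of called members under the alternatives, 490 kept the call, 107 lost it and 0 reversed, so direction held in each setting run. Array weights, the filter on low values and trended and robust moderation kept all 31 member calls of the 3 hypoxia comparisons. Under the filter these include the call of Fcgr4, which passed it only through its hypoxic groups. The mean of probe sets could not change a member's values, as each measured member has 1 probe set. Its 31 kept calls are among the 490, and it is counted among the alternatives of each gene. In control lungs (11 members called) the count was 0 with the nuclear noncoding RNA covariate and 17 relative to the pan-leukocyte markers, and 6 to 11 when single arrays were left out. In knockout lungs (6 called) it was 2 with the replicate block, 3 with the adipocyte covariate, 10 relative to the pan-leukocyte markers, 2 with the Y-linked gene covariate, 1 without the arrays of high Ucp1 and 3 with only the groups compared, and 2 to 5 without single arrays. Averaged over genotypes (14 called) it was 0 with the nuclear noncoding RNA covariate and 12 to 16 without single arrays. Among all genes, the nuclear noncoding RNA and Y-linked covariates lowered the number called in each hypoxia comparison. The adipocyte covariate lowered it in knockout lungs, from 282 to 113. It raised the number in control lungs from 2839 to 3657 and in the average from 3622 to 3840. The cause of each loss was not tested. Over all groups, the 15 pairs of arrays with the same replicate number correlated at -0.248 to 0.277, 4 of them over 0.1. The 39 other pairs correlated at -0.321 to 0.341. Between control and knockout normoxic lungs, however, the same-number pairs were all positive, at 0.0861, 0.277 and 0.183. Other pairs of these groups ran from -0.283 to 0.161. Whether same-numbered normoxic lungs were linked was not tested. With the block, 2680 of 24704 genes were called in the average and 40 in knockout lungs. Calls between genotypes and in the interaction were 0 of 32 in each setting.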
